A study of Homo sapiens with 2 samples.

Results

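A set of 8 genes mutated, lost or amplified in lung adenocarcinoma was examined for signal of R-loops, in which a nascent RNA stays paired to its template and leaves the other DNA strand free: EGFR, NF1, STK11, KEAP1, CUL3, MDM2, RB1 and MYC. They were 8 of 19974 protein-coding genes on chromosomes 1 to 22 and X. The list was chosen with earlier results of these data known. Every S9.6 peak touching a gene span or the 1000 bp on either side of it was collected, which gave 16 of 47810 listed peaks. The cells were A549, an established human lung cancer line, with the wild-type genotype and no treatment named in the labels. R-loops were profiled by CUT&Tag, in which an antibody tethers a transposase that cuts and tags nearby DNA, with S9.6, an antibody against hybrids of RNA and DNA. Of 2 libraries, 1 used S9.6 and 1 used non-specific IgG; the IgG library was not analysed here, so tagging that depends on hybrids was not separated from background tagging in any of the values. There was 1 library per antibody and so no replicate, no error between samples and no test: shares, ranks and intervals are descriptions of these peaks, and the intervals reflect counting error alone. A peak list holds neither mutations nor expression, so the driver label could not be checked against it.

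As background, these genes act in a few connected circuits. EGFR is a receptor tyrosine kinase that signals through RAS, and NF1 encodes neurofibromin, which switches RAS off. STK11 encodes LKB1, the kinase that activates AMPK and its relatives. KEAP1 holds the antioxidant regulator NRF2 on a ubiquitin ligase built on CUL3. MDM2 is the ubiquitin ligase that degrades p53, RB1 encodes the retinoblastoma protein that restrains E2F factors, and MYC encodes a growth-promoting transcription factor. A549 cells are known to carry inactivating mutations of STK11 and KEAP1. R-loops form behind RNA polymerase and are known to gather near the starts of transcribed genes, where a G-rich non-template strand favours them.

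The upstream sequences of 4 members are shown as examples. Those before the STK11 and NF1 starts and the outer KEAP1 start, not shown, were free of any peak, as was that of EGFR. The others shown lay whole under a peak at CUL3 and at both start groups of MDM2, and mostly under a peak at the inner start of KEAP1. Each is the 250 bases before a tabled start on the gene's strand, 5′ to 3′, from the RefSeq promoter table of GRCh38.p14. Capitals mark bases inside an S9.6 peak.
MDM2 outer start, chr12:68807922-68808171, plus strand: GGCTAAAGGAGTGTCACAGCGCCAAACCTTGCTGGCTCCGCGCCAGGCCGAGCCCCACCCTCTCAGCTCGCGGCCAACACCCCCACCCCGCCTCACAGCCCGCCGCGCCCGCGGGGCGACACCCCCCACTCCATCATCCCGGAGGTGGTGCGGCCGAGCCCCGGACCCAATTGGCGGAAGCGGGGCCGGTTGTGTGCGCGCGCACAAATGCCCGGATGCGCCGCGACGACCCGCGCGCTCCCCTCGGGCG
MDM2 inner start, chr12:68808767-68809016, plus strand: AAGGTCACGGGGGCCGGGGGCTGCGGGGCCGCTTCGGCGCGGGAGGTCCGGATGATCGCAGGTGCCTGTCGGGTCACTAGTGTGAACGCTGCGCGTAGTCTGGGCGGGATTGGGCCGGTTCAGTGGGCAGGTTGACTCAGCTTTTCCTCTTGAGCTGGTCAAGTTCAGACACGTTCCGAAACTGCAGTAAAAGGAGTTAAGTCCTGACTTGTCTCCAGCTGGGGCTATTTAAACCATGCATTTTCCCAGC
CUL3 start, chr2:224585364-224585613, minus strand: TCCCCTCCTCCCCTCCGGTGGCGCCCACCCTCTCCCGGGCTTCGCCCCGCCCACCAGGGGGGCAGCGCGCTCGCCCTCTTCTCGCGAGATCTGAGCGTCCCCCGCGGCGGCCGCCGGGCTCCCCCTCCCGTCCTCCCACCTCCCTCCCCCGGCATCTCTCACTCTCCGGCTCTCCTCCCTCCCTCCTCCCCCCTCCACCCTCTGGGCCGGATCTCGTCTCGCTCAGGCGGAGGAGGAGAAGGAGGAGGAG
KEAP1 inner start, chr19:10502772-10503021, minus strand: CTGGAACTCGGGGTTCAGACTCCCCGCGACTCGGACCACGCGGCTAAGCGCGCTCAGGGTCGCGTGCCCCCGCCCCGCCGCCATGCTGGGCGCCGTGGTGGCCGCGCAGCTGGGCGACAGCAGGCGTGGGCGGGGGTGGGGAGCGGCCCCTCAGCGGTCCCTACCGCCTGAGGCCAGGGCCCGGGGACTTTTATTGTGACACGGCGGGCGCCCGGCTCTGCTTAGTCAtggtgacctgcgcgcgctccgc
EGFR start, chr7:55018767-55019016, plus strand: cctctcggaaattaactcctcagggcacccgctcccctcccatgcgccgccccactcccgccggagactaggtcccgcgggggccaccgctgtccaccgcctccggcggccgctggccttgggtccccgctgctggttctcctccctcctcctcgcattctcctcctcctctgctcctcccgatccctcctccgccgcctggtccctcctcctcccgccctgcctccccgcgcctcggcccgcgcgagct

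The deposited list gives 2 values per peak, the total signal, which is the coverage summed over the peak, and the maximum coverage; both are the authors' values, unscaled whole numbers. Over chromosomes 1 to 22 and X there were 45756 peaks with a median maximum coverage of 2, a median total of 986 and a smallest total of 745. The 16 peaks over the driver genes had a median maximum of 2.5, a median total of 977.5 and a median width of 750 bp, against 685.5 bp in the whole list. Their maximum coverage was 2 in 8 peaks, 3 in 2 peaks, 4 in 2 peaks and 5 or more in 4 peaks. The 4 peaks of 5 or more were 25% of the driver gene peaks, while 9.54% of all peaks reached that height. At these heights a peak rests on a few overlapping fragments, and a gene without a peak may carry signal below the authors' threshold.

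Of the 8 driver genes, 7 had at least 1 peak (87.5%), and RB1 had none. Among all protein-coding genes 60.4% had a peak over the same extended span (95% Wilson interval 59.7 to 61.1). A peak within 1000 bp of either end of the span was present at 5 driver genes, KEAP1, CUL3, MDM2, NF1 and MYC, against 40.1% of protein-coding genes. In all 5 the end was the gene's start, and no driver gene had a peak within 1000 bp of its end. Among 15814 protein-coding genes with a strand, 36% had a peak at the start and 11.4% at the end. Strands came from the promoter table, except that MYC was taken from textbook knowledge to lie on the plus strand. A peak of maximum coverage 5 or more was found over 4 driver genes, EGFR, CUL3, MDM2 and MYC, against 17.8% of protein-coding genes. The driver genes were also long, with a median span of 78.9 kb against 24.2 kb for protein-coding genes. Long genes offer more places for peaks, so each gene was read beside genes of 0.5 to 2 times its own length. Of such genes, 19.1% had a peak as high as that of EGFR, 20.0% as MDM2, 17.6% as MYC and 12.3% as CUL3.

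**Figure D1:**
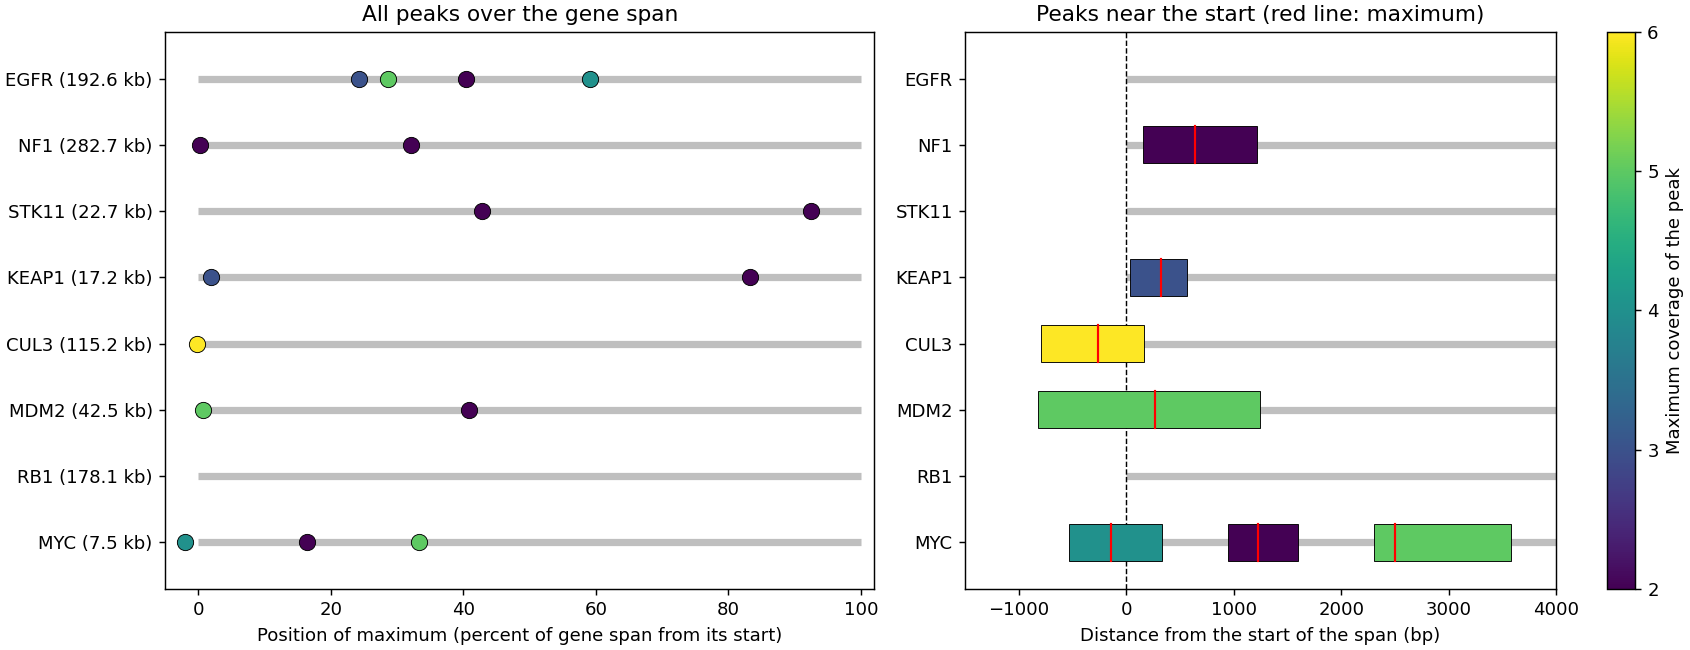
S9.6 peaks over the 8 driver genes. Left, the position of each peak's maximum as a percent of the gene span counted from its start (points, coloured by maximum coverage; grey lines are gene spans, with length in kb); right, the extent of peaks near the start in bp, with a red line at the middle of the maximum region. CUL3, MDM2 and MYC have a peak over the start, KEAP1 and NF1 a peak just inside it, and EGFR, STK11 and RB1 none.

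EGFR, the receptor (gene ID 1956, chromosome 7 from 55019017 to 55211628, 192.6 kb), carried the most peaks of the 8 genes, and none of its 4 peaks was near the start. They lay at 55065370 to 55065822, 55073820 to 55074428, 55096596 to 55097333 and 55132695 to 55133030, between 46.4 and 113.7 kb from the start with the last maximum at 59.1% of the gene's length. Their maximum coverage, in that order, was 3, 5, 2 and 4, and their totals were 748, 832, 1016 and 990. The total of 748 was near the smallest in the list, 745, and 99.1% of peaks had a total at least as large. The tallest, with a maximum of 5 over just 15 bp, rose from a 609 bp peak with a mean coverage of 1.37, so its height and its total rank differently: 9.54% of peaks were as high and 77.2% had as large a total. The last peak was the narrowest of the 16, 336 bp, and 99.4% of all peaks were at least as wide.

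Of 2955 protein-coding genes of 0.5 to 2 times its length, the median had 2 peaks and 25.1% had 4 or more. A start without a peak was common in such genes: of 587 with a strand and at least 4 peaks, 55.4% had none at the start. EGFR has a second tabled start at 55109839, inside the gene, and the nearest peak lay 12.5 kb from it. The nearest peaks outside the gene were 33.0 kb before the start and 43.1 kb after the end. Within 1 Mb on either side 28 peaks were listed, none above a maximum coverage of 4, so the peak of 5 inside EGFR was higher than any of them. The sequence before the start was 73.6% G and C, and C outnumbered G on the gene's strand. Its GC skew, (G − C)/(G + C), was -0.40, and 0.949% of 22130 start windows of protein-coding genes were as low; the median window had 62% G and C and a skew of 0.01.

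NF1, the RAS inhibitor (gene ID 4763, chromosome 17 from 31094977 to 31377675), is the longest of the 8 genes at 282.7 kb and had 2 low peaks. The one at 31095129 to 31096198 was 1070 bp wide with a total of 1539 and a maximum coverage of 2 held over 842 bp, a broad plateau with no sharp top. It began 152 bp inside NF1. The start of MIR4733HG, a lncRNA on the minus strand whose span ends at 31095490, lay within this peak, and the start of NF1 did not. Which of the 2 genes the signal belongs to cannot be told apart. The other peak, at 31185399 to 31186160, lay 90.4 kb from the start with a total of 965 and a maximum of 2. A count of 2 was the median of 1947 genes of like length. NF1 stood in a dense region, with 90 peaks within 1 Mb on either side and a highest maximum of 9 there.

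STK11, the kinase LKB1 (gene ID 6794, chromosome 19 from 1205778 to 1228431, 22.7 kb), had no start peak and 2 low peaks inside. The peak at 1215103 to 1215714, 612 bp wide, had a total of 945 and a maximum of 2. The peak at 1226106 to 1226967, 862 bp wide, had a total of 892, a maximum of 2 and a mean coverage of 1.03, the lowest of the 16. It ended 1464 bp before the end of the gene, outside the 1000 bp window used for ends. Among 6998 genes of like length the median had 1 peak, and 32.0% had 2 or more. Of 1759 such genes with a strand and at least 2 peaks, 32.5% had none at the start.

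STK11 lay in the densest surroundings of the 8 genes, and its own peaks were as dense but low. Within 1 Mb on either side there were 176 peaks, 88.1 per Mb, with a median maximum of 3 and a highest of 13, while the gene itself had 8.83 per 100 kb, both with a maximum of 2. Within 50 kb there were 22 peaks outside the gene. The closest, at 1235983 to 1236702, had a maximum of 6 and a total of 1662 and lay 7.55 kb beyond the gene's end. No peak lay within 9.33 kb of the STK11 start on either side, and any link of this to base composition was not tested. The 250 bases before that start were 76% G and C, with 4 runs of at least 4 G on the gene's strand and a positive skew of 0.11. A run of GGGG was present in 77.0% of start windows, and the median window held 2 such runs. The share of windows with 4 or more runs was not computed.

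KEAP1, the adaptor that binds NRF2 (gene ID 9817, chromosome 19 from 10486125 to 10503356, 17.2 kb), had a peak at its start and another towards its end. The start peak, at 10502794 to 10503320, was 527 bp wide with a total of 1027 and a maximum of 3. RefSeq lists 2 KEAP1 starts 585 bp apart, and the peak filled the stretch between them, beginning 36 bp inside the outer start and stopping 23 bp short of the inner one. Of 924 protein-coding genes with a strand and tabled starts 500 to 2000 bp apart, 56 (6.06%) had a peak lying wholly between the outermost starts. Of the 250 bases before the inner start, 228 were under the peak, as the capitals above show, and none of those before the outer start were. Among 5692 genes with a start peak, 83.0% had one at least as high. The other peak, at 10488570 to 10489350, had a total of 866 and a maximum of 2, and lay 2.45 kb before the end of the gene. Of 6859 genes of like length, the median had 1 peak and 29.9% had 2 or more.

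CUL3, the scaffold of the same ubiquitin ligase (gene ID 8452, chromosome 2 from 224470150 to 224585363, 115.2 kb), had a single peak, and it was the tallest of the 16. At 224585198 to 224586155 it was 958 bp wide, with a total of 1928 and a maximum of 6, a height that 5.77% of all peaks reached. It covered the start, and its maximum lay 261 bp before it, and most of its width lay upstream of the gene span. Among genes with a start peak 25.9% had one as high, and the median was 4. No other peak lay over the 115.2 kb of CUL3, and 26.8% of 4412 genes of like length had no peak at all. Within 1 Mb the other 21 peaks did not exceed a maximum of 3. A second tabled start, at 224569955, had its nearest peak 15.2 kb away.

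The sequence before the CUL3 start resembled that of EGFR in base composition. It was 74.8% G and C with a skew of -0.33, and 2.44% of start windows were as low. It held 7 runs of at least 4 C and 1 run of at least 4 G on the gene's strand, against 4 and 1 before the EGFR start. All 250 bases lay under the CUL3 peak, and the nearest peak to the EGFR start was 33.0 kb away. Over all start windows, the 26.6% that overlapped a peak had a median of 66.4% G and C against 59.6% in the rest, and median skews of 0.01 in both. Base composition was measured on RefSeq sequence and not on A549 DNA, and its relation to the peaks was not tested.

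MDM2, the ligase for p53 (gene ID 4193, chromosome 12 from 68808172 to 68850686, 42.5 kb), had the broadest peak and the largest total of the 16. It ran from 68807348 to 68809416, 2069 bp, with a total of 4350 and a maximum of 5; 0.691% of all peaks were as wide and 1.78% had as large a total. MDM2 is known to be transcribed from a basal promoter and from an inner promoter that p53 activates, and RefSeq lists starts in 2 groups 852 bp apart from first to last. The peak covered all of them, and its maximum lay 268 bp inside the outer start, between the groups. A peak over every tabled start was seen at 72 of the 924 genes with starts at such distances (7.79%).

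The sequences before the 2 MDM2 start groups differed in composition under the same peak. The outer one was 74.4% G and C with a skew of -0.17, 6 runs of at least 4 C and 2 of at least 4 G. The inner one was 59.2% G and C with a skew of 0.18, no run of 4 C and 4 runs of at least 4 G. A further peak at 68825184 to 68825870, inside the gene, had a total of 851 and a maximum of 2. Of 6752 genes of like length, the median had 1 peak and 35.5% had 2 or more. Just outside the 1000 bp limit, a peak at 68806571 to 68807113 with a total of 817 and a maximum of 3 ended 1059 bp before the gene. It was the closest excluded peak of the 8 genes.

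RB1, the retinoblastoma gene (gene ID 5925, chromosome 13 from 48303751 to 48481890, 178.1 kb), had no S9.6 peak over its span or within 50 kb of it. Among 3155 genes of 0.5 to 2 times its length, 23.5% had none. The nearest peaks were 172.9 kb before the gene, with a maximum of 2 and a total of 765, and 50.2 kb after it, at 48532108 to 48533439 with a maximum of 7 and a total of 3745. Between them lay 401.3 kb without a peak, a stretch that also holds the protein-coding genes ITM2B, LPAR6 and LOC124903173. Of 45733 gaps between neighbouring peaks 2.71% were as long. Chromosome 13 was sparse throughout: its median gap was 89.99 kb against 16.4 kb in the whole list, 66 of its 488 gaps (13.5%) were as long as the one over RB1, and 49.9% of its 337 other protein-coding genes had a peak.

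MYC, the transcription factor (gene ID 4609, chromosome 8 from 127735434 to 127742951), is the shortest of the 8 genes at 7.52 kb and the densest in peaks. It had 3 peaks, equal to 39.9 per 100 kb, while the median of 5181 genes of like length was 1 peak and 9.90% of them had 3 or more. The peak over the start, at 127734901 to 127735764, had a total of 1851 and a maximum of 4. The next, at 127736377 to 127737036, had a total of 891 and a maximum of 2. The third, at 127737741 to 127739013, was the strongest, with a total of 3760 and a maximum of 5.

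The order of the MYC peaks put the largest signal inside the gene and not at its start. The third peak began 2.31 kb from the start, was 1273 bp wide with a mean coverage of 2.95, and 2.47% of all peaks had as large a total. The gene's downstream part, from 3.94 kb before its end, had no peak. The 3 peaks stood alone: the next on either side were 60.7 kb before and 53.6 kb after the gene; 71 further peaks lay within 1 Mb. The nearer edge of the span of CASC11, a lncRNA, lay 934 bp from the start peak. The gene table gives no exons, so exonic and intronic positions are not stated for any of the 8 genes.

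**Figure D2:**
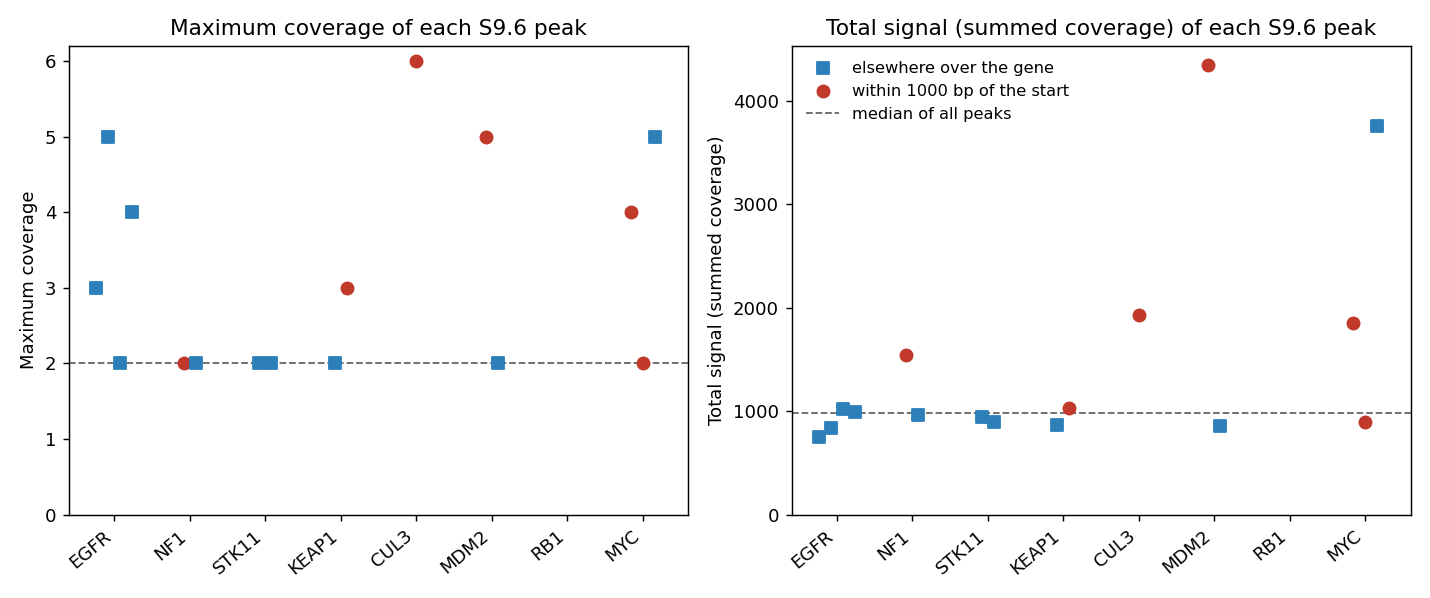
Maximum coverage (left) and total signal (right), the coverage summed over the peak, of each S9.6 peak over the 8 driver genes. Both axes start at 0. Red circles are peaks within 1000 bp of the gene start, blue squares all others, in order of genome position within a gene, and dashed lines the medians of all peaks, 2 and 986; the MDM2 start peak with a total of 4350 and the inner MYC peak with 3760 lie highest on the right.

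Among the driver genes, the 6 peaks within 1000 bp of a start had a median maximum of 3.5 and the 10 elsewhere a median of 2. The ranges overlapped, from 2 to 6 at starts and from 2 to 5 elsewhere. By highest peak the order was CUL3 (6), then EGFR, MDM2 and MYC (5 each), KEAP1 (3), and NF1 and STK11 (2 each). With 1 library there is no spread against which to set neighbours in this order apart. The median highest peak was 5 for the 7 driver genes with a peak, against 3 for all protein-coding genes with a peak.

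**Figure D3:**
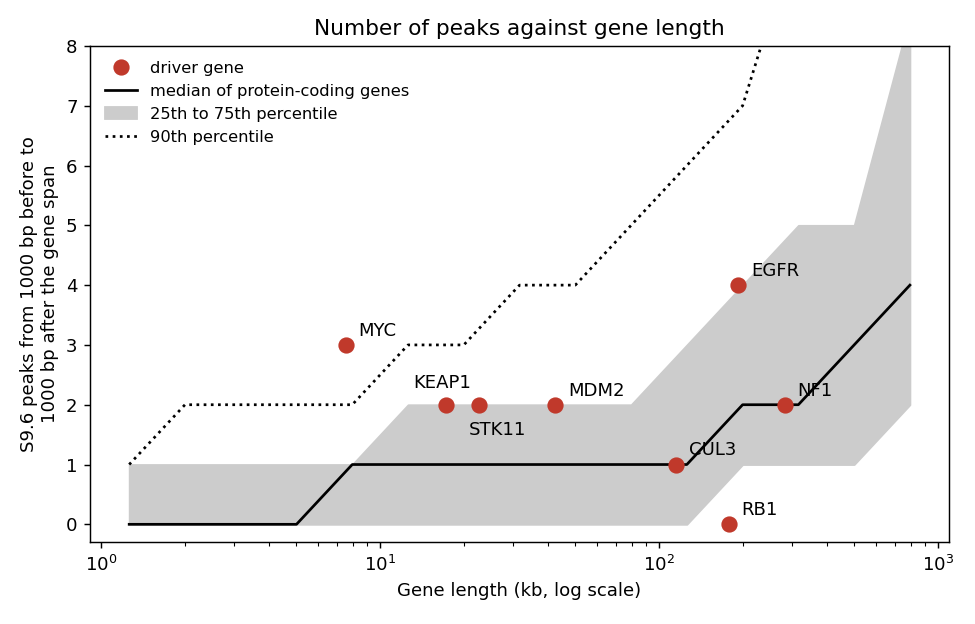
Number of S9.6 peaks over the gene span and 1000 bp on either side against gene length in kb on a log scale. Red points are the 8 driver genes and the line, band and dotted line are the median, the 25th to 75th percentiles and the 90th percentile of protein-coding genes in length bins; MYC with 3 peaks lies above the dotted line and RB1 with 0 below the band.

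The partners of the driver genes were taken from 7 lists of 105 genes in all, with a median length of 35.5 kb. Of these genes, 79 (75.2%) had a peak over the span or within 1000 bp of it, against 60.4% of protein-coding genes. Every span share of a list below uses this window. Some of the peaks counted lay outside the gene, such as the only one of SPRED1. A start peak was found at 50 of the 87 with a strand (57.5%), against 36%, and a peak of maximum 5 or more over 35 (33.3%), against 17.8%. No list was tested, and such peaks may belong to a neighbouring gene. The lists were chosen with earlier results of these data known, so their shares are descriptions only.

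Genes around KEAP1 and CUL3 had peaks most often. A peak over the span or within 1000 bp of it was found at 12 of 12, against 60.4% of protein-coding genes. At the start 9 of the 10 with a strand had one, against 36%, and the median highest peak was 5.5. The only peaks of NEDD8 and AMER1 lay outside the gene. RBX1, the RING subunit that CUL3 ligases use, had the tallest peak of the list, a maximum of 15 and a total of 5945 over its start on chromosome 22. MAFK, a small MAF protein that pairs with NRF2, had 5 peaks, the highest with a maximum of 11. NFE2L2, which encodes NRF2 itself, had 3 peaks with a highest maximum of 4.

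In the list around EGFR, 9 of 16 genes had a peak over the span or within 1000 bp of it (56.2%, against 60.4% of protein-coding genes). The adaptor SHC1 led with 7 peaks and a maximum of 13. The receptor ERBB3, with 4 peaks, and the RAS activator SOS1, with 2, tied next with a maximum of 7 each, and the total was larger at ERBB3 (5400) than at SOS1 (2117). ERBB2 had 7 peaks and a highest maximum of 5, in a peak that ended 32 bp before the gene. Of the 7 ligand genes 6 had no peak, AREG among them; the exception was TGFA, with 5 peaks and a highest maximum of 4. This pattern was noticed after the values were seen. All 5 ligand genes on chromosome 4 were among the 6, and that chromosome had 4.64 peaks per Mb, against 15.1 on chromosome 2, which holds TGFA; the part of this density in the pattern was not tested.

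RAS regulators had a peak in 12 of 15 genes (80%, against 60.4% of protein-coding genes). At the start 7 of the 12 with a strand had one (58.3%, against 36%). The RAS regulators had a median length of 104.4 kb. Of 4412 genes of a length like that of CUL3, 115.2 kb, 73.2% had a peak, so the span share was near that of long genes. SPRED2 and SPRED3, relatives of the protein that brings neurofibromin to the membrane, had highest maxima of 10 and 7. That SPRED3 peak ended 56 bp before the gene. The GTPase-activating gene RASA3 had no peak. In the LKB1 and AMPK list 12 of 19 had a peak, a span share of 63.2% beside the 60.4% of all protein-coding genes. At the start 8 of 17 had one, 47.1% beside 36%. This list too was of long genes, with a median of 70.0 kb against 24.2 kb for protein-coding genes. Of genes of a length like that of MDM2, 42.5 kb, 34.5% had no peak, and of those like CUL3 26.8%. MARK2, an AMPK-related kinase, reached a maximum of 10, and STRADA, the pseudokinase partner of LKB1, reached 6. CAB39, the scaffold of that complex, had no peak.

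In the MYC network 11 of 14 had a peak, 78.6% against 60.4% of protein-coding genes. At the start 9 of 13 had one, 69.2% against 36%. The tallest were at MNT and MXD1, both of which encode MAX partners that oppose MYC, with a maximum of 13 each. The MNT peak, on chromosome 17 from 2399055 to 2402201, was 3147 bp wide with a total of 18984. MLXIP had no peak. Around MDM2, 9 of 12 had a peak (75%, against 60.4%) and 4 of 9 had one at the start (44.4%, against 36%). The tallest were at BBC3, a p53 target that promotes apoptosis, with a maximum of 12, and SESN1, another p53 target, with 7. RPL11, a ribosomal protein that binds MDM2, had none.

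In the RB list 14 of 17 genes had a peak, 82.4% against 60.4% of protein-coding genes, while RB1 itself had none. At the start 6 of 12 had one, 50% against 36%. CDK2 and CCNE1, whose products form a kinase that phosphorylates the retinoblastoma protein, reached 12 and 8; the CDK2 peak, from 55973185 to 55974439 on chromosome 12, lay outside the gene, which ends at 55972789. Of the relatives of RB1, RBL1 had 4 peaks with a highest maximum of 3 and RBL2 had none. E2F2 also had none.

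**Figure D4:**
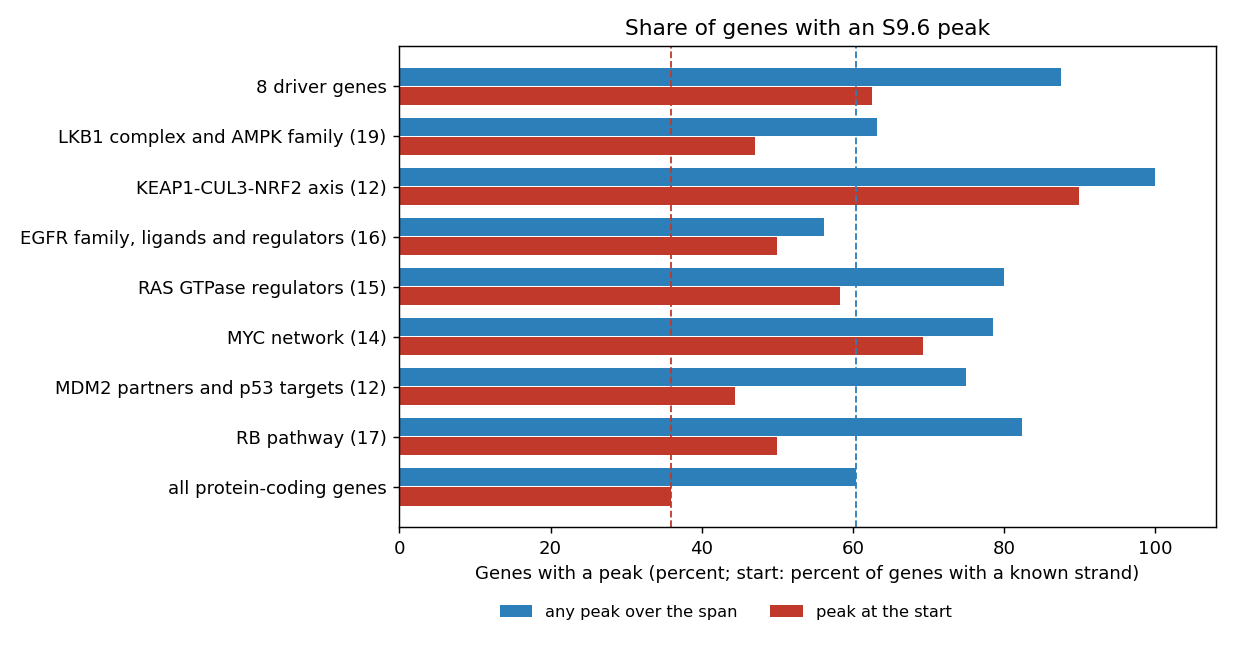
Share of genes, in percent, with any S9.6 peak over the span or 1000 bp on either side (blue) and with a peak within 1000 bp of the start (red, out of genes with a known strand), for the 8 driver genes, 7 lists of partner genes with the number of genes in parentheses, and all protein-coding genes, whose values are drawn on as dashed lines. The KEAP1-CUL3-NRF2 list has the highest bars, 100% and 90%, against 60.4% and 36% in all protein-coding genes. Driver genes and lists were chosen with earlier results known.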

How the data were processed

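A549 cells were profiled by CUT&Tag with 1 S9.6 and 1 IgG library; the IgG library was not analysed here. SEACR 1.3, Bowtie2 2.4.2, fastp 0.23.2, bedtools 2.30.0, SAMtools 1.9, deepTools 3.5.2 and the build GRCh38 are listed in the submitters' processing notes, without roles. By its name the deposited list is the stringent one. Not given in the sources used here are the numeric peak threshold, whether IgG served as control and how duplicates were handled. The deposited values are signal, total and maximum coverage per peak, whole numbers without scaling; the sequencing depth is unknown, so low peaks carry little precision.

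Peaks on chromosomes 1 to 22 and X were joined to RefSeq gene spans and start sites of GRCh38.p14 with Python 3.11.15, pandas 2.3.3 and NumPy 2.4.6; an overlap needed 1 base. The overlap code was tested on simulated data. Shares carry 95% Wilson intervals (statsmodels 0.14.6). No test was run, since there was 1 library per antibody. All 8 driver genes are described. From each partner list the 2 genes with the highest peak (ties by total signal) and, by alphabet, the first lacking a peak are named. NFE2L2, SOS1, ERBB2, TGFA, RBL1, RBL2, NEDD8, AMER1 and SPRED1 were added after their values were seen. Driver genes and lists were chosen with earlier results of these data known. Alternatives were a higher maximum coverage, summits and other windows.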

Additional observations from a re-analysis of the deposited data

How the results depend on the processing

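The 7 driver genes with a peak had one under each change of window or overlap, and RB1 had none under any. Requiring the summit in the window, or cutting the windows to 0 bp beyond the span and 200 bp around its ends, left 7 genes with a peak, 5 with one at an end and 16 peaks. Windows of 5000 bp gave 7, 6 and 17. A count over 8 genes moves only by whole genes, so its steadiness cannot be set against shares of all protein-coding genes. Those shares also moved. Genes with a peak over the span and its flanks were 59.6% by summit, 56.3% with the small windows and 65.7% with 5000 bp, against 60.4%. Genes with one at an end were 36.7%, 30.7% and 55.1%, against 40.1%. With peaks of maximum coverage 3 or more alone, 8 of the 16 peaks were left, over 5 genes and at the ends of 4, against background shares of 44.6% and 32.2%; STK11 and NF1 then had no peak, as did RB1. No paired analysis was possible because there was 1 library per antibody and no test. Depth limits what can be said of peaks that rest on a coverage of 2, and of RB1.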
